A study of Mus musculus with 3 samples.

Results

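Pancreatic polypeptide (PP) cells are the islet endocrine cells that make pancreatic polypeptide, the peptide encoded by *Ppy*. They were chosen by their measured hormone RNA, as cell barcodes in which *Ppy* made up at least 5% of the unique molecular identifiers (UMIs, which count each captured RNA molecule once), in which *Ppy* UMIs outnumbered those of *Sst* and those of *Gcg*, and in which *Ins2* stayed under 20%. This rule found 64 PP cells among 25524 barcodes. There were 24 of 12000 barcodes in the WT library (0.200%, exact 95% interval 0.128 to 0.297), 7 of 2295 in the 1-week library (0.305%, 0.123 to 0.627) and 33 of 11229 in the 5-week library (0.294%, 0.202 to 0.412). The 3 intervals overlapped. All intervals in the text cover counting error only, and conditions could not be tested against each other, since each has 1 library.

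The libraries were made by droplet capture (10X Genomics Chromium, 3′ tags) from live-sorted single cells of mouse islets of Langerhans on a C57/Bl6 background. The question of the study was what the loss of Taf4, a subunit of the general transcription factor TFIID, does to insulin-producing beta cells. The WT library came from 300 islets of 1 mouse labelled wild type, and each of the 1-week and 5-week libraries from 300 islets pooled from 2 mutant mice. The mutants carried floxed *Taf4* alleles and a tamoxifen-inducible Cre-ERT2 driven by the *Ins1* promoter, so that *Taf4* is deleted in beta cells and PP cells are not its target, and they were taken 1 week or 5 weeks after inactivation by tamoxifen. The control animals of the study as a whole carried the same driver with intact *Taf4* and also received tamoxifen, but the label of the WT library does not say whether this mouse did. All mice were labelled male.

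The libraries held between 19472212 and 39408284 UMIs. *Taf4* itself was barely captured, with 0 UMIs in the PP cells of WT, 1 at 1 week and 1 at 5 weeks, and 78, 76 and 114 UMIs in beta cells (*Ins2* at 20% or more, *Ppy* under 5%), that is 4.76, 6.40 and 3.71 CPM (UMIs per 1000000 UMIs of the class and library). Tags from the 3′ end can lie outside the deleted exons, so these counts do not check the labels. The WT library held 17357 UMIs of *Xist*, the RNA of the inactive X chromosome, and none of the Y-linked *Ddx3y*, *Eif2s3y*, *Kdm5d* or *Uty*, against its male label, while the mutant libraries held 17 and 11 *Xist* UMIs and between 239 and 1974 UMIs of each Y-linked gene. Among PP cells, 18 of the 24 in the WT library had an *Xist* UMI, none did in the mutant libraries, and *Ddx3y* had 0, 9 and 5 UMIs in WT, 1 week and 5 weeks. Between pairs of libraries 2, 33 and 5 barcode sequences were shared, none of them of a PP cell. From the WT library alone the authors removed called doublets and cells high in any pair of *Ins1*, *Gcg* and *Sst*, and they scaled it down to 12000 cells, so genotype, animal, sex, filtering and library cannot be told apart in any comparison of conditions. No further doublet call was made. Median depth in WT was 713.5 UMIs in PP, 627.5 in delta, 762 in alpha and 1664 in beta cells, and whether PP cells include doublets was not tested.

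Pancreatic polypeptide belongs to the neuropeptide Y family with peptide YY (*Pyy*) and neuropeptide Y (*Npy*), short amidated peptides that act on a shared group of G protein-coupled receptors. PP cells lie mostly at the islet edge and are most frequent in the part of the pancreas that arises from the ventral bud, and the peptide is released after meals under vagal control and lowers food intake and exocrine secretion. Peptide YY is best known from gut L cells but is also made in several islet cell types of the mouse.

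*Ppy* and *Pyy* lie next to each other, and the stretch just before each start of transcription is shown because both marker genes of these cells come from this locus. In GRCm38.p6 (RefSeq), *Ppy* spans 102099931 to 102101319 on the minus strand of chromosome 11 and *Pyy* spans 102106676 to 102107832 on the same strand, with 5356 bases and 0 other genes between them. The 120 bases before the start are given on the minus strand, chr11:102101320-102101439 for *Ppy* and chr11:102107833-102107952 for *Pyy*, and capitals mark TATAA, the letters of the core of a TATA box.
Ppy: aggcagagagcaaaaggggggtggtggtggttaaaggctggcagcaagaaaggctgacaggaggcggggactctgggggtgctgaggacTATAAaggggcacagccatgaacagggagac
Pyy: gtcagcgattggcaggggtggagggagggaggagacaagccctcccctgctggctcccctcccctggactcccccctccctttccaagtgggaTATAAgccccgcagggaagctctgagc
The capitals start 31 bases before the start of *Ppy* and 27 bases before that of *Pyy*, for which the outermost of 2 annotated starts was used. The same letters on the same strand were found in 2803 of 32851 start-site windows of this length (8.53%), and on either strand in 3892 (11.8%).

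The hormone content of single PP cells covered a wide range. Since *Ppy*, *Sst*, *Gcg* and *Ins2* chose the cells, their values are a description. *Ppy* took from 6.62% to 55.3% of a cell's UMIs in the WT library, with a median of 19.4%. In the 7 cells of the 1-week library it took 32.4%, 10.7%, 7.18%, 6.22%, 6.08%, 6.02% and 5.46%, so that 1 cell gave 9181 of the 15751 *Ppy* UMIs of that library's PP cells. At 5 weeks *Ppy* ran from 5.53% to 38.9% with a median of 8.81%. The medians of the mutant libraries lay nearer the limit of 5% than that of WT, and 19, 2 and 16 cells reached 10% in WT, 1 week and 5 weeks. Just outside the limit, with the other conditions met, the highest *Ppy* shares were 4.90% in WT, 4.05% at 1 week and 4.95% at 5 weeks, and 2, 5 and 3 such barcodes held at least 3%.

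**Figure D1:**
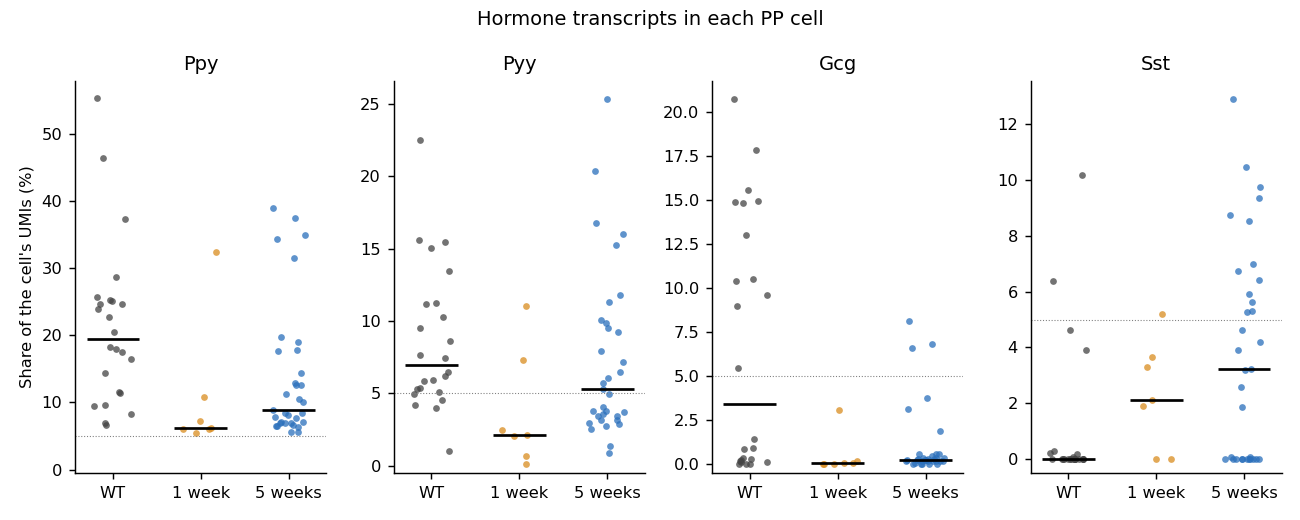
Share of each PP cell's UMIs (percent) taken by *Ppy*, *Pyy*, *Gcg* and *Sst* in the WT, 1-week and 5-week libraries, one point per cell, with bars at the medians and a dotted line at 5%. *Ppy* has medians of 19.4%, 6.22% and 8.81%, *Gcg* reaches 20.7% in WT cells, and *Sst* reaches 12.9% in cells of the 5-week library.

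*Pyy*, the second marker of these cells, was not used to choose them and had at least 1 UMI in each of the 64. It took from 1.01% to 22.5% of UMIs in WT cells (median 6.95%), from 0.122% to 11.0% at 1 week (median 2.13%) and from 0.895% to 25.3% at 5 weeks (median 5.29%). The WT and 5-week cells covered nearly the same range, and the 1-week cells lay toward its low end. In UMIs, *Pyy* outnumbered *Ppy* in 2 WT cells, 2 cells of the 1-week library and 5 cells of the 5-week library, 9 of the 64 in all, and it took at least 5% in 19, 2 and 17 cells.

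*Ppy* chose the PP cells and was held under 5% in the other classes, so its contrast is fixed by the rule, and *Pyy* alone could check the label. Summed over cells, *Ppy* stood at 223288 CPM in WT PP cells, 130008 CPM at 1 week and 163705 CPM at 5 weeks. In delta cells, the somatostatin cells (*Sst* at 5% or more, *Ppy* under 5%), it stood at 14572, 14759 and 15179 CPM, and in alpha cells, the glucagon cells (*Gcg* at 5% or more, *Ppy* and *Sst* under 5%, *Ins2* under 20%), at 5876, 3967 and 5607 CPM. In beta cells *Ppy* stood at 185, 64.8 and 819 CPM. *Pyy* stood at 86296 CPM in WT PP cells (82177 to 90568), 40527 CPM at 1 week (39401 to 41677) and 89101 CPM at 5 weeks (86264 to 92007). It was also abundant in delta cells, at 42320, 56451 and 39538 CPM, and in alpha cells, at 17600, 6867 and 18583 CPM. *Pyy* was therefore above delta cells in the WT and 5-week libraries and below them in the 1-week library, so that *Pyy* alone did not set PP cells apart.

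**Figure D2:**
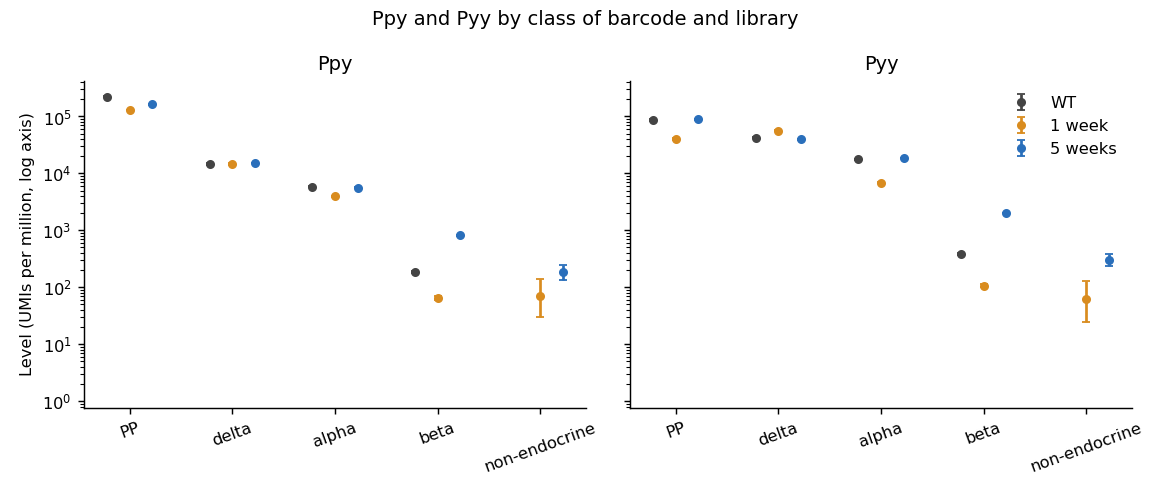
Level of *Ppy* and *Pyy* (CPM of summed UMIs, log axis) in PP, delta, alpha, beta and non-endocrine barcodes of the WT, 1-week and 5-week libraries, with exact 95% counting intervals. *Ppy*, which chose the PP cells, is highest in them by the rule, and *Pyy* in delta cells (42320, 56451 and 39538 CPM) comes closest to its level in PP cells. The WT non-endocrine class, a single barcode with 0 UMIs of both genes, is not drawn.

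To set a background that includes free RNA in the droplets, detection in beta cells and non-endocrine barcodes was read after each barcode was thinned to 500 UMIs. Beta cells were chosen without a limit on *Sst* or *Gcg*, so they may include barcodes with a second hormone. The part of free RNA in their shares was not tested. *Pyy* was then detected in 24 of 24 PP cells in WT, 5 of 7 at 1 week and 33 of 33 at 5 weeks. In beta cells it was detected in 9.42%, 33.1% and 23.8%, and in 15.3% of the 176 non-endocrine barcodes of the 5-week library. The interval of the 1-week PP cells, from 29.0% to 96.3%, held the share of the beta cells of that library. Presence after thinning in 7 cells was thus too coarse to tell them from these beta cells. Before thinning these cells held from 15 to 1961 *Pyy* UMIs each, with a summed level of 40527 CPM. Median depths before thinning were 713.5, 17687 and 1229 UMIs in PP cells, 1664, 618 and 3955 in beta cells and 1332.5 in the non-endocrine barcodes, and without thinning *Pyy* was detected in 22.4%, 49.8% and 51.8% of beta cells and 34.7% of the non-endocrine barcodes.

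*Ppy* was detected in 78.7% of thinned WT delta cells and 48.1% of WT alpha cells, against 4.22% of WT beta cells. At 5 weeks the shares were 81.6% and 48.9%, against 14.1% of beta cells and 7.95% of non-endocrine barcodes. At 1 week *Ppy* was detected in 10 of 18 delta cells and in 40.2% of alpha cells (33.5 to 47.2), against 28.5% of beta cells (25.8 to 31.2). Low *Ppy* counts were thus more frequent in alpha than in beta cells of each library, by a wide margin in WT and at 5 weeks and by a small one at 1 week.

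Of the rest of the neuropeptide Y family little was seen. *Npy* had 0 UMIs in the PP cells of each library, which allows up to 157, 24.8 and 71.6 CPM in WT, 1 week and 5 weeks. In WT beta cells it had 1474 UMIs (89.9 CPM), so that at the depth of the WT PP cells an equal level was not detectable. The receptor *Npy1r* had 0 UMIs in the PP cells of the WT and 5-week libraries, and the other receptors of the family were not analysed here. Among 22 other peptide hormone genes, ghrelin (*Ghrl*), cholecystokinin (*Cck*), galanin (*Gal*) and *Cartpt* had 0 UMIs in all PP cells.

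Many PP cells carried a second islet hormone, and which one differed between libraries. *Gcg*, glucagon, took at least 5% of UMIs in 12 of 24 WT cells, 0 of 7 cells of the 1-week library and 3 of 33 cells of the 5-week library. *Sst*, somatostatin, took at least 5% in 2 of 24, 1 of 7 and 13 of 33 cells. No cell had both, and 10, 6 and 17 cells had neither. The median share of *Gcg* came to 3.44%, 0.0785% and 0.244% in WT, 1 week and 5 weeks, and that of *Sst* to 0%, 2.13% and 3.23%. Under the rule, PP cells with *Gcg* were thus found mostly in WT and those with *Sst* mostly at 5 weeks. Outside it, barcodes with *Ppy* at 5% or more and *Gcg* at or above *Ppy* were common in both, 140 in WT and 103 at 5 weeks. With 1 library per condition, with WT alone filtered for cells high in pairs of hormones, and with *Ppy* required to exceed both, this is a description.

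Transthyretin (*Ttr*), a carrier of thyroid hormone and retinol-binding protein that is abundant in alpha cells, and amylin (*Iapp*), a peptide co-released with insulin that delta cells also transcribe, went with the second hormone. *Ttr* took at least 0.5% of UMIs in 10 of the 15 PP cells with *Gcg*, in 0 of the 16 with *Sst* and in 5 of the 33 with neither. *Iapp* took at least 2% in 3 of 15, 15 of 16 and 16 of 33 of these cells. These counts pool the libraries, and 12 of the 15 cells with *Gcg* were in WT and 13 of the 16 with *Sst* at 5 weeks. Second hormone and library therefore cannot be fully told apart in them. By library, *Ttr* reached 0.5% in 8 of 12 cells with *Gcg* and 0 of 2 with *Sst* in WT. At 5 weeks it did so in 2 of 3 and 0 of 13. The PP cells with *Gcg* were mostly rich in *Ttr* and poor in *Iapp*, those with *Sst* the reverse, and those with neither hormone were spread over both patterns. The highest *Ttr* share, 6.90%, was in a WT cell with only 0.300% *Gcg*, and the highest *Iapp* shares, 11.2% and 10.7%, were in cells with neither hormone at 5%.

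The summed levels are given with the number of cells behind them, since few cells carried most *Ttr*. In the WT library *Ttr* stood at 12361 CPM in PP cells with *Gcg*, at 9031 CPM in those with neither, and at 0 UMIs in the 2 cells with *Sst*. Of the 66 *Ttr* UMIs in the 10 WT cells with neither, 59 were in 2 cells, 46 of them in 1, and the other 8 cells stood at 1175 CPM. At 5 weeks *Ttr* stood at 7231 CPM in the cells with *Gcg*, 5713 CPM in those with neither and 74.6 CPM in those with *Sst*. There 3 of the 17 cells with neither held 121 of their 146 *Ttr* UMIs, and the others stood at 1179 CPM. *Rbp4*, the plasma retinol-binding protein and a delta-cell marker, ran the other way: at 5 weeks it stood at 5219 CPM in the 13 cells with *Sst* (4068 to 6594), at 1800 CPM in the 17 with neither (1318 to 2401), and at 0 UMIs in the 3 with *Gcg*. *Hhex*, the homeobox factor of delta cells, had 3 UMIs in the cells with *Sst*, 4 in those with neither and 0 in those with *Gcg* at 5 weeks. *Pyy* stood at 40781 CPM in the cells with *Sst* at 5 weeks, 109716 CPM in those with neither and 130854 CPM in those with *Gcg*, so that the cells with *Sst* had *Pyy* close to the 39538 CPM of delta cells.

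**Figure D3:**
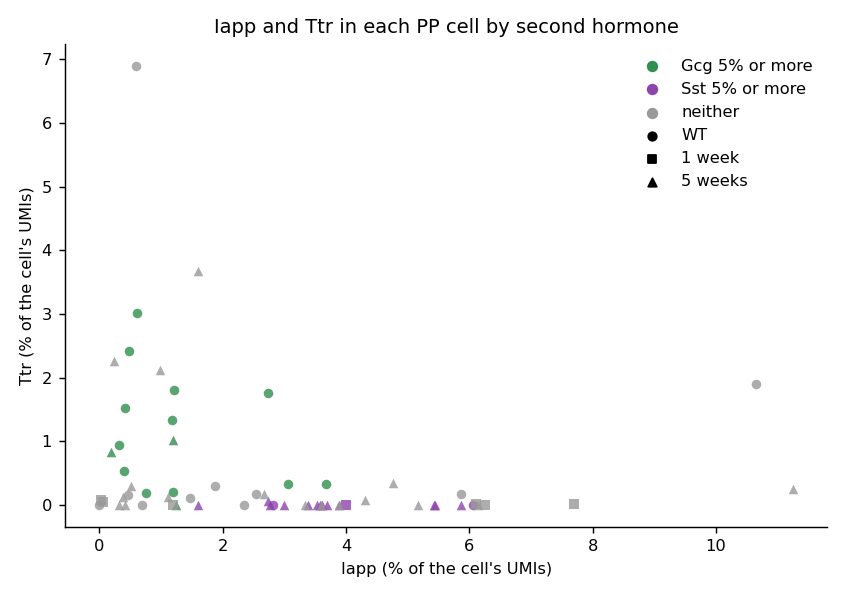
Share of *Iapp* against share of *Ttr* (percent of a cell's UMIs) in each of the 64 PP cells, coloured by the second hormone at 5% or more (*Gcg*, *Sst* or neither) and marked by library. Cells with *Sst* lie along the *Iapp* axis with *Ttr* at or near 0, and 10 of the 15 cells with *Gcg* lie at 0.5% *Ttr* or more.

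PP cells differed from delta cells of the same library in few genes beyond those that chose them. *Ttr* and *Pyy* were higher in PP cells, and *Rbp4* and *Iapp* were lower. The comparison used sums of UMIs per library and class in the WT and 5-week libraries, with the library as a term, in edgeR's quasi-likelihood test with Benjamini-Hochberg adjustment over all 2809 genes that passed a filter on low counts. The 7 PP cells of the 1-week library, under the minimum of 10, stayed out of the fit, and their values are given beside it. At an adjusted p under 0.05 there were 8 genes (0.285% of those tested), 6 higher in PP cells (0.214%) and 2 lower (0.0712%), where 172 had an unadjusted p under 0.05. The 4 sums leave 1 residual degree of freedom, so SEs and p-values rest mostly on a spread shared over genes and not on each gene's own. DESeq2 called 0 genes on the same sums, with 42 at an unadjusted p under 0.05.

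*Ttr* stood at 9909 CPM in WT PP cells and 614 CPM in WT delta cells, at 4012 and 1498 CPM at 5 weeks, and at 264 and 45.9 CPM at 1 week. It was higher in PP cells in all 3 libraries, by 2.77 ± 0.24 (log2, SE) in the fit (edgeR adjusted p = 2.88e-26), while alpha cells held 38369, 15802 and 6706 CPM in WT, 5 weeks and 1 week. Against delta cells with *Ins2* under 20% and *Gcg* below *Sst* it was 3.92. The difference rested on a minority of cells: *Ttr* took at least 0.5% of UMIs in 10 of 24 PP cells in WT, which held 174 of 189 *Ttr* UMIs, and in 5 of 33 at 5 weeks, which held 142 of 168. In delta cells 0.528% and 5.12% of cells reached that share. The other 14 WT cells had a *Ttr* level of 1414 CPM, above the 614 CPM of all WT delta cells. The other 28 cells of the 5-week library had 737 CPM. The 1498 CPM of its delta cells includes those at 0.5% or more, so it is no like comparison for these 28 cells. At 1 week 1 cell gave 22 of the 32 *Ttr* UMIs. Fitted on the PP cells with neither *Gcg* nor *Sst* at 5%, the difference was 2.84, with 180 of 212 UMIs in 5 of 27 cells.

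*Pyy* was about 2-fold higher in PP than in delta cells in the libraries fitted, 86296 against 42320 CPM in WT and 89101 against 39538 CPM at 5 weeks, with a log2 difference of 1.19 ± 0.22 (SE, edgeR adjusted p = 2.97e-05). In the 1-week library the order was the opposite, 40527 against 56451 CPM. With the 1-week library added the difference was 0.61 (edgeR adjusted p = 0.0358), and it no longer passed when WT was then left out (0.36, edgeR adjusted p = 0.409) or when the 5-week library was (0.31, edgeR adjusted p = 0.985). In the WT and 5-week libraries the call was also lost with TMM factors from all filtered genes (1.03, edgeR adjusted p = 0.906) and with DESeq2 (1.05, adjusted p = 0.99979).

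*Rbp4* was lower in PP cells in each library, at 1416 against 6676 CPM in WT, 2963 against 5782 CPM at 1 week and 2770 against 5487 CPM at 5 weeks. Its log2 difference was -1.43 ± 0.24 (SE, edgeR adjusted p = 2.03e-06). *Iapp* was lower as well, at 20866 against 55888 CPM, 36978 against 51656 CPM and 28657 against 39010 CPM, with a log2 difference of -0.83 ± 0.21 (SE, edgeR adjusted p = 0.0416). Neither gene's levels overlapped between the classes. The call of *Iapp* was lost without TMM scaling (-0.82, edgeR adjusted p = 0.232), with factors from all filtered genes (edgeR adjusted p = 0.899) and with no filter on low counts (-0.83, edgeR adjusted p = 0.290). That of *Rbp4* was kept in these settings, with the largest adjusted p in edgeR at 0.0296 (-1.60).

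Other genes higher in PP cells rested on few molecules and were named after their values were seen, since they fell under the 20 UMIs set for named genes. *Cd9*, a tetraspanin of the cell membrane, had 3, 3 and 4 UMIs in PP cells of WT, 1 week and 5 weeks and 1, 1 and 13 UMIs in the far larger delta sums. Its log2 ratio was 6.001 in WT (2.36 to 11.7) and 3.91 at 5 weeks (1.84 to 5.60), and the fit gave 4.34 ± 0.84 (SE, edgeR adjusted p = 0.000199). *Tmsb15b2*, of the actin-binding thymosin beta family, had 3, 4 and 7 UMIs and a difference of 2.68 (edgeR adjusted p = 0.00508), and *Eef1a2*, a translation elongation factor, had 2, 4 and 6 UMIs and a difference of 2.58 (edgeR adjusted p = 0.0456). With no filter on low counts none of these 3 genes passed. *Cd9* was too rare in the delta sums to pass the filter there. It entered the test only through the small PP sums where it was high, so its adjusted p is no support. The same was not checked for *Tmsb15b2* and *Eef1a2*, and their p-values are a description.

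Genes next in order of p did not pass, and their values follow without a direction being called. Thymosin beta 4 (*Tmsb4x*) had a log2 difference of 0.83 (edgeR adjusted p = 0.177), the stress-responsive factor *Atf3* 1.17 (edgeR adjusted p = 0.348) and the cytochrome oxidase subunit *Cox7c* 0.72 (edgeR adjusted p = 0.716). Chromogranin B (*Chgb*), a granule protein, had -0.86 (edgeR adjusted p = 0.198), the delta-cell marker *Fam159b* -1.17 (edgeR adjusted p = 0.253) and the surface glycoprotein *Cd24a* -2.04 (edgeR adjusted p = 0.290).

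**Figure D4:**
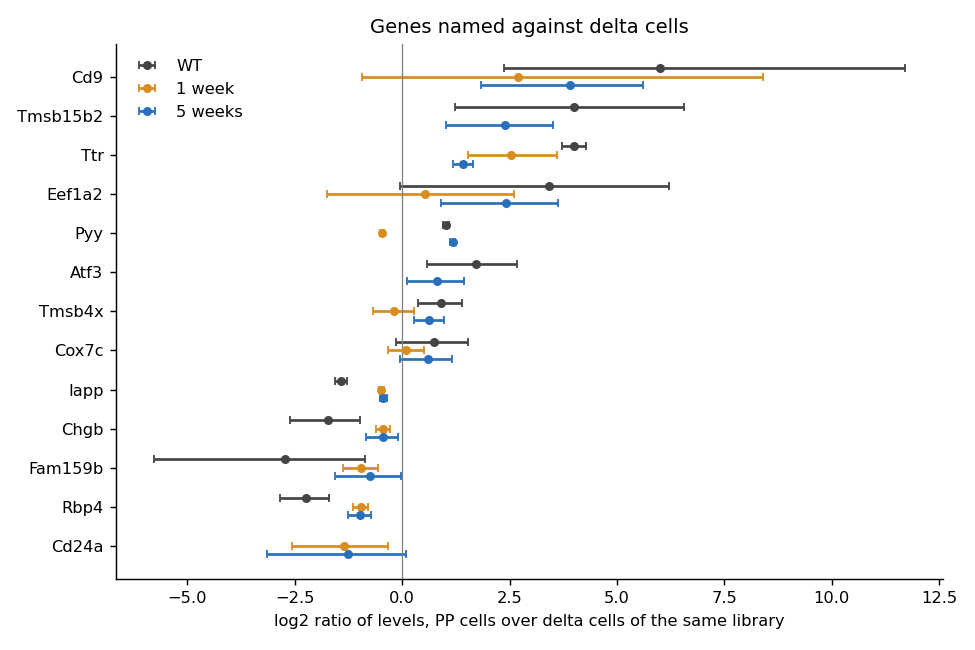
Log2 ratio of CPM in PP cells over delta cells of the same library for genes named in this comparison, in the WT, 1-week and 5-week libraries, with exact 95% counting intervals. *Ttr* lies above 0 and *Rbp4* and *Iapp* below 0 in all 3 libraries, while *Pyy* lies above 0 in WT and at 5 weeks and below 0 at 1 week. Points are missing where a class had 0 UMIs (*Tmsb15b2* and *Atf3* at 1 week, *Cd24a* in WT).

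By gene group, PP and delta cells differed in few tested members. Among 10 alpha-cell markers apart from *Gcg*, 7 were tested and 1 was higher in PP cells (*Ttr*), with a median log2 difference of 0.60 against -0.08 over all genes tested. Among 7 delta-cell markers apart from *Sst*, 5 were tested and 1 was lower (*Rbp4*), with a median of -1.17. Summed over the delta markers, PP cells held 1783, 4061 and 3606 CPM in WT, 1 week and 5 weeks, against 8053, 7848 and 6720 CPM in delta cells, so the PP level was lower in each library. Summed over the alpha markers they held 11062, 1643 and 5134 CPM, against 1611, 1328 and 2217 CPM in delta cells and 40024, 8056 and 17143 CPM in alpha cells. Most of that sum was *Ttr*, and the 9 other alpha markers gave 1153, 1378 and 1122 CPM in PP cells, 997, 1282 and 719 CPM in delta cells and 1655, 1350 and 1341 CPM in alpha cells. Without *Ttr* the intervals of PP and delta cells overlapped in WT (723 to 1746 and 903 to 1099) and at 1 week (1177 to 1604 and 1148 to 1427) but not at 5 weeks (825 to 1493 and 683 to 757).

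Of 25 transcription factors of endocrine cells, 16 were tested against delta cells and 0 passed the edgeR test, with 1 at an unadjusted p under 0.05 and 0 by DESeq2, and their median was 0.18. *Pax6*, required for islet hormone cells, stood at 209.7, 239 and 239 CPM in PP cells of WT, 1 week and 5 weeks. *Isl1*, a LIM-homeodomain factor of all islet endocrine cells, stood at 105, 388 and 430 CPM from 2, 47 and 18 UMIs. *Etv1*, an ETS factor listed as an alpha marker, stood at 419, 272 and 239 CPM.

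Of 22 genes of secretory granules and prohormone processing, 21 were tested against delta cells and 0 passed the edgeR test, with 4 at an unadjusted p under 0.05 and 0 by DESeq2, and their median was -0.20. The prohormone convertase *Pcsk2* stood at 1520, 1733 and 1934 CPM in PP cells, and 1255, 2281 and 1291 CPM in delta cells of WT, 1 week and 5 weeks. Its relative *Pcsk1*, which beta cells use on proinsulin, had 1, 3 and 0 UMIs in PP cells. Chromogranin A (*Chga*) stood at 2202, 2889 and 2412 CPM against 1727, 2763 and 1684 CPM in delta cells. Of 22 hormone and nutrient receptors only 2 had enough counts to be tested, and of 17 channels and nutrient sensors 5, with 0 passing in either list (1 and 0 at an unadjusted p under 0.05 by edgeR, 0 by DESeq2). Of 16 stress and immediate early genes 14 were tested and 0 passed, with 1 at an unadjusted p under 0.05 and 0 by DESeq2.

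Markers of other cells were scarce in PP cells apart from exocrine transcripts. Endothelial markers gave 1, 3 and 0 UMIs in WT, 1 week and 5 weeks, macrophage markers 1, 11 and 5, and mesenchymal and lymphocyte markers 0 in each library. The 10 digestive enzyme genes of the acinar list gave 10066, 24.8 and 2675 CPM in PP cells and 14616, 7.65 and 2132 CPM in delta cells. The 1-week values rested on 3 UMIs in PP cells and 2 in delta cells. All 10 genes were tested against delta cells and 0 passed (1 at an unadjusted p under 0.05 by edgeR, 0 by DESeq2). Digestive enzyme RNA thus varied more between libraries than between these classes of one library.

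Against alpha cells, PP cells had more *Pyy* and *Iapp* and less *Ttr* in the fit. The same PP sums were used as against delta cells, so the 2 comparisons are not independent. Of 6777 genes tested, 31 passed (0.457%), 28 higher in PP cells (0.413%) and 3 lower (0.0443%), with 233 at an unadjusted p under 0.05. The split depended on the scaling: the median log2 difference of all genes was 0.31, and it was -0.08 without TMM scaling (8 higher, 8 lower), -0.33 in DESeq2 (3 higher, 53 lower) and -0.52 with TMM factors from all filtered genes (1 higher, 12 lower). Of the 28 genes higher in PP cells, 14 exceeded the median of all genes by at least 1, and 8 also passed without TMM scaling.

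The genes that passed both in the fit and without TMM scaling included *Pyy*, at 2.43 ± 0.31 (log2, SE, edgeR adjusted p = 2.96e-11), and *Iapp*, at 1.88 ± 0.23 (edgeR adjusted p = 6.57e-13). Of the 22 granule and processing genes, all 22 were tested, and 2 were higher (*Chgb*, and *Scg2*, which encodes secretogranin II) and 1 lower (*Slc30a8*), with a median of 0.15 against 0.31 over all genes. *Chgb* stood at 734, 3557 and 1481 CPM in PP cells of WT, 1 week and 5 weeks against 339, 488 and 427 CPM in alpha cells, a fitted difference of 1.70 ± 0.24 (edgeR adjusted p = 1.13e-09). *Scg2* stood at 996, 2295 and 1624 CPM against 425, 697 and 607 CPM, a difference of 1.47 ± 0.22 (edgeR adjusted p = 4.61e-08). Both were above alpha cells in all 3 libraries. The small heat-shock protein gene *Hspb1* stood at 3617 against 871 CPM in WT and 4681 against 1364 CPM at 5 weeks, a difference of 2.01 ± 0.18 (edgeR adjusted p = 9.79e-25), and had only 3 UMIs in the 1-week PP cells. In DESeq2 *Pyy*, *Iapp* and *Hspb1* passed, but *Chgb* (0.97, adjusted p = 0.0641) and *Scg2* (0.80, adjusted p = 0.0720) did not. With TMM factors from all filtered genes none of these 5 passed (edgeR adjusted p from 0.241 to 0.974), with differences such as 0.94 for *Iapp*, 0.78 for *Chgb* and 0.59 for *Scg2*, and *Fam159b* alone passed among genes higher in PP cells (2.85, edgeR adjusted p = 0.0114).

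Of the 7 delta-cell markers, 4 were tested against alpha cells and 3 were higher in PP cells, with a median of 3.34. PP cells could hold *Sst* at 5% or more, as 2 of 24 in WT and 13 of 33 at 5 weeks did, while alpha cells could not. The excess of delta markers is therefore partly set by the classes, and so is that of *Iapp*, which went with *Sst*. The values of these markers without such PP cells are not reported here. *Rbp4* was higher by 1.11 ± 0.20 (edgeR adjusted p = 1.58e-05) but did not pass without TMM scaling (0.70, edgeR adjusted p = 0.195). *Fam159b*, a transmembrane protein gene, and *Tspan8*, a tetraspanin, were named after their values were seen and were higher by 3.54 ± 0.70 (edgeR adjusted p = 0.000315) and 3.13 ± 0.71 (edgeR adjusted p = 0.00478). Both of these also passed without TMM scaling. *Ly6h*, a GPI-anchored protein gene also named after its values were seen, was higher by 4.31 ± 1.01 (edgeR adjusted p = 0.00687), with 13 UMIs at 5 weeks and 0 in WT.

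Among the genes lower in PP than in alpha cells were *Ttr* and *Slc30a8*, and both also passed without TMM scaling. *Ttr* was lower by 1.81 on the log2 scale, at -1.81 ± 0.26 (edgeR adjusted p = 4.43e-09). *Slc30a8*, the granule zinc transporter, had 3 and 4 UMIs in PP cells of WT and 5 weeks and a difference of -1.78 ± 0.45 (edgeR adjusted p = 0.0229). With factors from all filtered genes the call of *Ttr* was lost (-2.74, edgeR adjusted p = 0.142) and that of *Slc30a8* was not, and with no filter on low counts that of *Slc30a8* was lost (-1.78, edgeR adjusted p = 0.0713). Further values were those of the mitochondrial protein gene *Higd1a* at -1.80 (edgeR adjusted p = 0.113) and the cationic amino acid transporter *Slc7a2* at -2.11 (edgeR adjusted p = 0.172), which did not pass.

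The remaining named genes higher in PP than in alpha cells were largely chaperone and immediate early genes, and their call held only under the scaling of the fit. They included *Dnaja4* (1.60), *Hspd1* (1.26), *Hsph1* (1.16), *Dnaja1* (0.99) and *Hspa1a* (0.91) of the heat-shock chaperones, the transcription factors *Jun* (1.09) and *Fos* (1.01), and the TGF-beta pseudoreceptor *Bambi* (1.62). Of 15 stress and immediate early genes tested 5 passed (*Jun*, *Fos*, *Egr1*, *Hspa1a* and *Hspa1b*), with a median of 0.80 against 0.31 over all genes. None of these genes passed without TMM scaling, and with factors from all filtered genes the directions of *Hspa1b* (-0.026), *Dnajb1* (-0.080), *Hsp90aa1* (-0.073), *Hsp90ab1* (-0.054) and *Gm42418* (-0.12) turned, the last 4 named after their values were seen. *Jun* stood at 629 against 622 CPM in WT, 586 against 214 CPM at 1 week and 3869 against 1603 CPM at 5 weeks. *Egr1*, with 4 UMIs in WT PP cells, and *Gm42418* did not keep the same direction in both libraries fitted.

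Between conditions, the PP cells of the 5-week and WT libraries held *Pyy* at nearly the same level. The genes that differed most included insulin 1, digestive enzymes, a gene model that overlaps ribosomal RNA, and some but not all stress-responsive genes. Ratios of CPM were formed for the 159 genes whose 2 libraries summed to 30 UMIs or more, with 3 or more in each, and a gene was counted where its counting interval lay wholly beyond 2-fold. There were 10 such genes (6.29%), 5 higher at 5 weeks (3.14%) and 5 lower (3.14%), and the median log2 ratio of all 159 was 0.10. *Pyy* had a log2 ratio of 0.05 (-0.04 to 0.13), *Chga* 0.13 (-0.40 to 0.69) and *Pcsk2* 0.35 (-0.28 to 1.01). *Iapp* had 0.46 (0.29 to 0.62) and *Rbp4* 0.97 (0.35 to 1.63), where delta cells had -0.52 and -0.28.

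*Ins1*, which beta cells transcribe and the mutants lose, had the lowest ratio in PP cells, -2.53 (-2.93 to -2.15), with -1.81 in delta and -2.97 in alpha cells. It stood at 10643 CPM in WT PP cells and 1839 CPM at 5 weeks, and in WT and 5-week beta cells at 153076 and 21898 CPM. The acinar protease genes *Prss2* (-2.21), *Try4* (-2.13) and *Ctrb1* (-2.03) followed, with ratios from -2.95 to -2.83 in delta cells and from -3.03 to -2.96 in alpha cells. Both kinds of transcript belong to other cells and were lower in all 3 classes, and the part of free RNA in them was not tested.

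*Pcsk1n*, the precursor of the convertase inhibitor proSAAS, stood at 7445 CPM in WT PP cells and 2746 CPM at 5 weeks, a ratio of -1.44 (-1.81 to -1.07), with -0.79 in delta and -1.19 in alpha cells. *Ttr* had -1.30 (-1.61 to -0.997) in PP cells and -1.28 in alpha cells but 1.29 in delta cells. The PP cells with *Gcg* were 12 of 24 in WT and 3 of 33 at 5 weeks. Delta cells were chosen without a limit on *Gcg*, and only WT had been filtered for cells high in *Gcg* and *Sst*. Their median *Ttr* share was 0% in both libraries, and *Ttr* reached 0.5% in 3 of 568 in WT and 66 of 1289 at 5 weeks. The ribosomal protein genes *Rpl39* and *Rps27* had -1.13 each, with intervals from -2.10 to -0.16.

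At the other end were *Gm42418*, a gene model that overlaps ribosomal RNA, at 2.98 (2.23 to 3.83), *Jund* at 2.95 (1.67 to 4.61) and *Jun* at 2.62 (1.78 to 3.60), both subunits of the AP-1 factor. Heat-shock genes came with them, *Hsp90aa1* at 1.89 (1.13 to 2.74) and *Hspa1a* at 1.87 (1.28 to 2.50). Among those whose intervals reached below 2-fold were *Hsph1* (2.49), the stress sensor *Gadd45g* (2.32), *Egr1* (2.19), *Hspd1* (2.08) and *Hsp90b1* (1.94). In delta cells the ratios of the 10 genes named above ran from 0.18 (*Gadd45g*) to 1.88 (*Gm42418*). In delta and alpha cells *Jun* had 1.19 and 1.37 and *Jund* 1.03 and 1.40, and whether the ratios differed between classes was not tested. *Jun* stood at 629 CPM in WT PP cells and 3869 CPM at 5 weeks. Other stress-responsive genes had intervals that included 0, among them *Atf3* (-0.06), *Hspb1* (0.37), *Hspa5* (0.74) and *Fosb* (0.81).

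**Figure D5:**
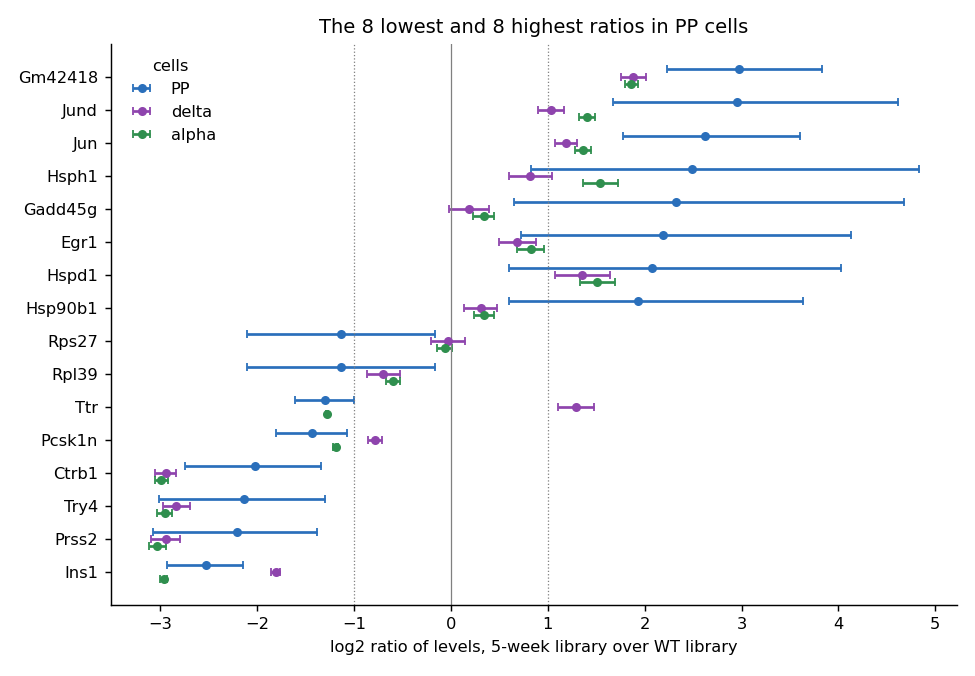
Log2 ratio of CPM at 5 weeks over WT in PP cells for the 8 lowest and 8 highest genes, with exact 95% counting intervals, and the same ratio in delta and alpha cells beside it. *Ins1* (-2.53) and the acinar proteases lie lowest in PP cells, and *Gm42418* (2.98), *Jund* (2.95, from 5 UMIs in WT) and *Jun* (2.62) highest. *Ttr* stands at -1.30 in PP cells and at 1.29 in delta cells, where the median *Ttr* share was 0% in both libraries and a minority of cells held 0.5% or more.

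At 1 week the PP cells were 7, but each was deep, with a median of 17687 UMIs against 713.5 in WT. *Chgb* was the only granule protein gene among the 8 highest ratios over WT, and *Pyy* was among the genes with low ratios. Of 341 genes with enough counts, 19 had intervals wholly beyond 2-fold (5.57%), 10 higher (2.93%) and 9 lower (2.64%), and the median log2 ratio of all was 0.33. The WT control is the same as for 5 weeks, so the 2 sets of ratios are not independent. *Pyy* had -1.09 (-1.17 to -1.01), with 0.42 in delta and -1.36 in alpha cells. *Chgb* had 2.28 (1.51 to 3.16), with 1.00 in delta and 0.53 in alpha cells.

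The lowest ratios at 1 week were those of *Hspb1* (-7.19), *Ttr* (-5.23), *Ins1* (-4.78), *Fos* (-2.58), the elastase gene *Cela1* (-2.28), *Tmsb4x* (-2.11), the translocon-associated protein gene *Ssr4* (-1.76) and the ubiquitin-like *Nedd8* (-1.73). *Hspb1* had -8.53 in delta and -8.36 in alpha cells, and *Ttr* had -3.74 and -2.52. Among the highest were the ferritin light chain gene *Ftl1* (3.49), *Chgb*, and the ribosomal protein genes *Rps15* (2.46), *Rps26* (2.18), *Rpl17* (2.16), *Rpl5* (2.11) and *Rpl3* (2.09). *Ftl1* had 2.56 in delta and 3.57 in alpha cells. These ratios went with a depth per cell that was far higher at 1 week, and the part of depth in them was not tested.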

How the data were processed

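The authors aligned the reads to mm10 with CellRanger (3.1 in the labels' notes) and deposited raw counts of UMIs per gene and barcode, 1 table per library. Unexpressed genes had been dropped according to the authors, yet 822 genes of the WT table and 87 of the 5-week table had no UMI. All deposited barcodes were used. The limits on detected genes and mitochondrial share that the study states were an alternative.

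PP, delta, alpha, beta and non-endocrine classes were cut from shares of a barcode's UMIs. Non-endocrine barcodes held at least 10 UMIs and 1% of the endothelial, macrophage, mesenchymal and lymphocyte lists. Members and gene lists were chosen with earlier results of these data known. UMIs were summed per library and class and tested with edgeR 4.0.16 (glmQLFit and glmQLFTest, filterByExpr, library as a term) in R 4.3.3, without *Ppy*, *Sst*, *Gcg* and *Ins2*. TMM factors came from genes with at least 10 predicted UMIs in the smallest sum. This choice was made after seeing the data, and how factors from all filtered genes behave in simulated data is not reported here. DESeq2 1.42.0 was an alternative. Each test rested on 2 libraries of different conditions. With 1 residual degree of freedom, edgeR took most of the variance from a prior shared over genes. SEs and p-values therefore do not measure how far a single gene differed between the 2 libraries. PP sums held 19074, 121154 and 41874 UMIs in WT, 1 week and 5 weeks. Intervals are exact at 95%, and 0 counts allow 3 (Python 3.11.15, scipy 1.17.1). SEs follow from the fold change and its p. The scripts were tested on simulated data.

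Named genes were the 15 largest higher and 10 largest lower differences past an adjusted p of 0.05 with at least 20 UMIs in the higher class and one direction in every library tested, or the 5 of smallest p where fewer than 5 passed, the 8 highest and 8 lowest ratios between libraries, and members of the lists. Other genes are said to have been named after their values were seen. Some genes that the rule names are not reported here. Sequences are from RefSeq tables of GRCm38.p6.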

Additional observations from a re-analysis of the deposited data

How the results depend on the processing

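Against delta cells the 8 genes past the edgeR threshold became 0 with DESeq2, 4 with no filter on low counts, 15 with *Ppy* at 10% or more, 5 with TMM factors from all filtered genes and 14 with the 1-week library added (8 to 10 when 1 other library was then left out). Against alpha cells the 31 genes became 56 with DESeq2, 16 without TMM scaling, 6 with *Ppy* at 10% or more, 12 with PP cells that had neither other hormone, 13 with TMM factors from all filtered genes and 214 with the 1-week library added (75 to 119 when 1 other library was left out). Under TMM factors from all filtered genes *Dnajb1* (-0.080), *Gm42418* (-0.12), *Hsp90aa1* (-0.073), *Hsp90ab1* (-0.054) and *Hspa1b* (-0.026) turned direction against alpha cells. The share of PP cells in WT was 0.0833% without second hormones. At 1 week it was 0.0871% with *Ppy* at 10% or more, and at 5 weeks 0.142% with that limit and 0.151% without second hormones. *Pyy* in WT stood at 130263 CPM when the 4 genes of the rule were left out of the totals. At 1 week it stood at 22497 CPM with *Ppy* at 10% or more, 32911 CPM without second hormones, 36801 CPM as a mean of cells and 48326 CPM without the 4 genes, and at 5 weeks at 116565, 109716, 74120 and 119848 CPM in the same order. The 10 genes past 2-fold at 5 weeks became 6 with *Ppy* at 10% or more, 3 without second hormones and 6 at a minimum of 100 UMIs, and the 19 at 1 week became 10, 8 and, without the 4 genes in the totals, 12. Other settings left these counts within 1.5 times and these values within their intervals. Over all settings, values of single named genes kept their direction and side of the threshold in 104 cases against delta cells, lost the call in 28 and gained one in 11, and against alpha cells in 165, 141 and 9. The causes of these moves were not tested. The limits on genes and mitochondrial share left 0 PP cells at 1 week. With 2 libraries in the fit, leaving one out gives no residual degree of freedom, so it was done with the 1-week library added, an alternative chosen after seeing the data, as were the TMM factors from all filtered genes. No paired analysis was possible because each condition has 1 library. Few PP cells per library and 19074 UMIs in the WT sum limit what could be detected to abundant transcripts.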

Other observations

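Most barcodes rich in *Ppy* fell outside the rule because another hormone was higher. *Ppy* took at least 5% of UMIs in 216 WT barcodes, 13 at 1 week and 277 at 5 weeks, and among these *Gcg* was at or above *Ppy* in 140, 4 and 103 and *Sst* in 51, 2 and 140. Median depth in WT was 773 UMIs in those with *Gcg*, 558 in those with *Sst* and 713.5 in PP cells, and at 5 weeks 1932, 1146 and 1229 UMIs. Their other transcripts went with the leading hormone. *Ttr* stood at 16970 CPM in WT barcodes led by *Gcg* (16239 to 17725) and 623 CPM in those led by *Sst* (381 to 963), and at 7713 and 198 CPM at 5 weeks. *Rbp4* stood at 779 and 7511 CPM in WT and at 1042 and 6938 CPM at 5 weeks, and *Iapp* at 10816 and 51984 CPM in WT and 8409 and 42955 CPM at 5 weeks. *Hhex* had 0 and 7 UMIs in WT and 8 and 42 at 5 weeks. *Pyy* was high in both, at 45384 and 46000 CPM in WT and 57650 and 52910 CPM at 5 weeks. The PP cells defined here were thus 24 of 216, 7 of 13 and 33 of 277 barcodes with *Ppy* at 5% or more. How many of the others are doublets was not tested.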
